A study of Mus musculus with 40 samples.

Results

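The genes described here are 9 neighbours of Hira on mouse chromosome 16, followed in hematopoietic stem cells (HSCs) and in multipotent progenitors (MPPs) of mice labelled KO for Hira and of mice labelled WT. They are Mrpl40, Cdc45, Txnrd2, Tango2, Dgcr8, Trmt2a, Ranbp1, Zdhhc8 and Dgcr2. They were taken by symbol, as genes of the segment that matches the human deletion region of DiGeorge syndrome, and all 9 were found in each of the 6 deposited expression tables, among 30365 gene symbols in all. The comparison asks whether cells labelled KO differ from cells labelled WT at the genes beside Hira. Whether labelled WT mice also carried floxed alleles is not given. An effect of the floxed allele itself and one of its deletion can therefore not be told apart.

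RNA was measured in 40 libraries, in 12 groups. All mice were of the C57BL/6 strain, and the cells came from the bone marrow of adults. In the first cohort deletion was induced with poly(I:C), a mimic of viral RNA that raises interferon, given in 2 doses of 20 µg, and each library is made from 2500 cells, taken 1 week after dose 1. It has 4 labelled KO and 4 labelled WT libraries of HSCs, and as many of MPPs. In the H2B-GFP cohort, mice with Mx1-Cre and both Hira alleles floxed (Hirafl/fl) also carried Rosa26-M2rtTA, which doxycycline activates, and the reporter TetOP-H2B-GFP. They drank doxycycline at 2 mg/ml, sweetened with sucrose at 10 mg/ml, for 6 weeks, which loads chromatin with a fluorescent histone that each division dilutes. Their cells were sorted as GFP-high or GFP-low after a chase of 17 days, 15 days after the last of 2 doses of 20 µg poly(I:C), with 3 labelled KO and 3 labelled WT libraries for each of 4 populations. The labels name the genotypes only as HIRA KO and WT, and do not give the alleles that labelled WT mice carried, the Cre of the first cohort, or ages in weeks. Mx1-Cre, which interferon switches on, acts in many interferon-responsive cells, not in blood stem cells alone.

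Hira is a subunit of a complex that deposits histone H3.3 independently of DNA synthesis. Its neighbours are functionally mixed: some serve mitochondria (Mrpl40, Txnrd2), some DNA replication and nuclear transport (Cdc45, Ranbp1), some RNA processing (Dgcr8, Trmt2a), and some membranes (Zdhhc8, Tango2, Dgcr2). A targeted allele can alter genes beside it, for instance where a shared promoter region or a retained selection cassette is touched, so neighbours of a floxed gene are commonly looked at.

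All 9 neighbours lie on the lower-coordinate side of Hira, which spans chr16:18877037-18970309 on the plus strand (GRCm38, GENCODE M21). Mrpl40 ends 0.2 kb from it, Cdc45 65.0 kb, Txnrd2 398.0 kb, Tango2 528.9 kb, Dgcr8 587.8 kb, Trmt2a 622.3 kb, Ranbp1 628.3 kb, Zdhhc8 641.9 kb and Dgcr2 978.5 kb. Hira and Mrpl40 point away from each other, and their RefSeq start sites are 113 bases apart. Ranbp1 and Trmt2a form a second such pair, with start sites 189 bases apart. Other neighbours form such pairs with genes outside the 9. Start sites of Tango2 and Arvcf are 84 bases apart, and those of Cdc45 and Ufd1 322 bases. Some genes overlap on opposite strands, by 825 bases for Dgcr8 and Trmt2a, 54 bases for Ranbp1 and Trmt2a, and 209 bases for Cdc45 and Ufd1. Other coding genes give longer overlaps of whole gene spans. Gm28539 overlaps Hira by 79211 bases on the same strand and Mrpl40 by 4845 on the opposite strand. Gm49776 overlaps Trmt2a by 6094 bases on the opposite strand, and Dgcr8 by 4374 and Ranbp1 by 3518 on the same strand. Gm20518 overlaps Dgcr2 by 52190 bases on the same strand. Whether the libraries kept the strand is not given in the sources used here, so reads of these overlaps cannot be assigned with certainty. For overlaps on the same strand, the strand would not tell the genes apart.

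The 4 stretches of RefSeq sequence below (GRCm38.p6) were chosen because they hold a start region shared by 2 genes, or precede Cdc45 and Zdhhc8, the neighbours with the smallest unadjusted p of a single table. The 112 bases between the Mrpl40 and Hira start sites (chr16:18876638-18876749, plus strand, read towards Hira) hold 75% G and C. The 188 bases between the Ranbp1 and Trmt2a start sites (chr16:18248695-18248882, plus strand, read towards Trmt2a) follow, then the 250 bases before the start sites of Cdc45 (chr16:18811973-18812222, minus strand) and Zdhhc8 (chr16:18235137-18235386, minus strand). Capitals mark exact matches, on either strand, to CCAAT, to the CHR element TTTGAA of cell cycle genes, or to 4 E2F words (TTTCCCGC, TTTGGCGC, TTTCGCGC, TTTGCCGC).
Between Mrpl40 and Hira: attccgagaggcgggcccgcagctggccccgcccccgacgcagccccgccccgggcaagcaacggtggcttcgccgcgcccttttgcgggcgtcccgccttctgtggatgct
Between Ranbp1 and Trmt2a: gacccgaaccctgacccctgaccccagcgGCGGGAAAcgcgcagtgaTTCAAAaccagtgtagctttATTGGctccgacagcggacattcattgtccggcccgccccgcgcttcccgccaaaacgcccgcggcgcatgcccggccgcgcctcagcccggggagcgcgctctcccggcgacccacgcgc
Before Cdc45: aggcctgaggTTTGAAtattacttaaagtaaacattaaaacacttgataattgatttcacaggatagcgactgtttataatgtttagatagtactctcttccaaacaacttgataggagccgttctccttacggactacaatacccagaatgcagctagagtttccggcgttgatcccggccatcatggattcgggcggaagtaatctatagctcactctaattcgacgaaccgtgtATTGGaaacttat
Before Zdhhc8: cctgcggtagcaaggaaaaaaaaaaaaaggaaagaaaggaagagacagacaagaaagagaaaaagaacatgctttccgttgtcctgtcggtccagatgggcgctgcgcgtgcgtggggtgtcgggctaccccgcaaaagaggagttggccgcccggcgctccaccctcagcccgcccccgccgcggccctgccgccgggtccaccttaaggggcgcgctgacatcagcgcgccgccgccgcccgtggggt

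The stretch shared by Ranbp1 and Trmt2a held 1 match each to E2F, CHR and CCAAT. The stretch before Cdc45 held 1 match each to CHR and CCAAT, and the stretches beside Hira and Zdhhc8 held none of the 3 kinds. In the window reaching 50 bases past its start site, Cdc45 had a further match to CCAAT (from base -2) and to CHR (from base 10). Of the neighbours whose sequence is not shown, Dgcr8 had 4 matches to CCAAT, Dgcr2 had 2 and Tango2 had 1 or 2 for each of its 3 start sites, and Txnrd2 had none, in windows of 250 bases before to 50 after a start site. Among 32851 promoter windows of 300 bases (250 before and 50 after a start site), 2.26% held one of the E2F words, 17.89% CHR and 37.41% CCAAT. The stretches shown are shorter than these windows, so the shares are not for a like length. None of the stretches was measured for binding here.

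Values are FPKM, read fragments scaled by gene length and library depth, as the authors deposited them. Each of the 6 tables was scaled by itself, so levels are compared within a table only. Recovered depth was 18860000 to 33470000 reads per library in the first cohort and 5820000 to 9570000 in the H2B-GFP cohort, and the neighbours rested on 113 to 10810 reads per library. Of 10 HSC and MPP markers, all were listed in every table, and only Slamf1, an HSC marker, stayed under 1 FPKM in every library of the 3 MPP tables. Labelled KO replicate 3 of the H2B-GFP cohort stood apart in part of the tables. The summed level of 7 neutrophil markers was 28433 FPKM in its GFP-low HSCs and 23829 FPKM in its GFP-high MPPs, where the other 5 libraries of those tables had 2058 to 4851 and 3925 to 6398 FPKM. In GFP-high HSCs and GFP-low MPPs it had the lowest such sum of the 6 libraries, at 4290 and 3674 FPKM, where the others had 4349 to 7384 and 4586 to 10147 FPKM. It was also the highest labelled KO library for Ranbp1 and Mrpl40 in every GFP table. Averages over the GFP tables are given with and without this replicate, a setting added after seeing the data, where that changes a call, the direction or the size by over 1.5 times.

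Hira itself did not separate the labels in any table, with log2 differences between -0.23 and 0.13 and adjusted p from 0.692 to 0.965 (limma). In HSCs it had 1.32, 1.12, 0.72 and 1.28 FPKM in labelled KO libraries, against 1.45, 0.84, 1.64 and 1.07 FPKM in labelled WT libraries. A value over the whole gene does not show which exons are missing, and the deleted part is not given in the labels, so the genotypes below stand as labelled.

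The neighbours differ widely in level. In HSCs, over the 8 libraries of both labels, Ranbp1 averaged 185 ± 28.0 FPKM (SD), at the 96.3 percentile of the 13717 genes tested. Mrpl40 followed with 55.1 ± 5.44 FPKM, then Cdc45 with 22.5 ± 2.60, Trmt2a with 17.7 ± 3.15 and Dgcr2 with 10.0 ± 1.02 FPKM. Below them came Txnrd2 with 7.21 ± 0.522, Tango2 with 6.58 ± 0.514, Dgcr8 with 5.33 ± 0.708 and Zdhhc8 with 3.01 ± 0.641 FPKM, and Hira was lowest with 1.18 ± 0.307 FPKM, at the 4.12 percentile. The library ranges of Cdc45 and Trmt2a, of Txnrd2 and Tango2, and of Tango2 and Dgcr8 overlapped, and the other steps of this order did not. Ranbp1 was first, Mrpl40 second and Hira last in all 6 tables, and the others changed places from table to table.

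**Figure D1:**
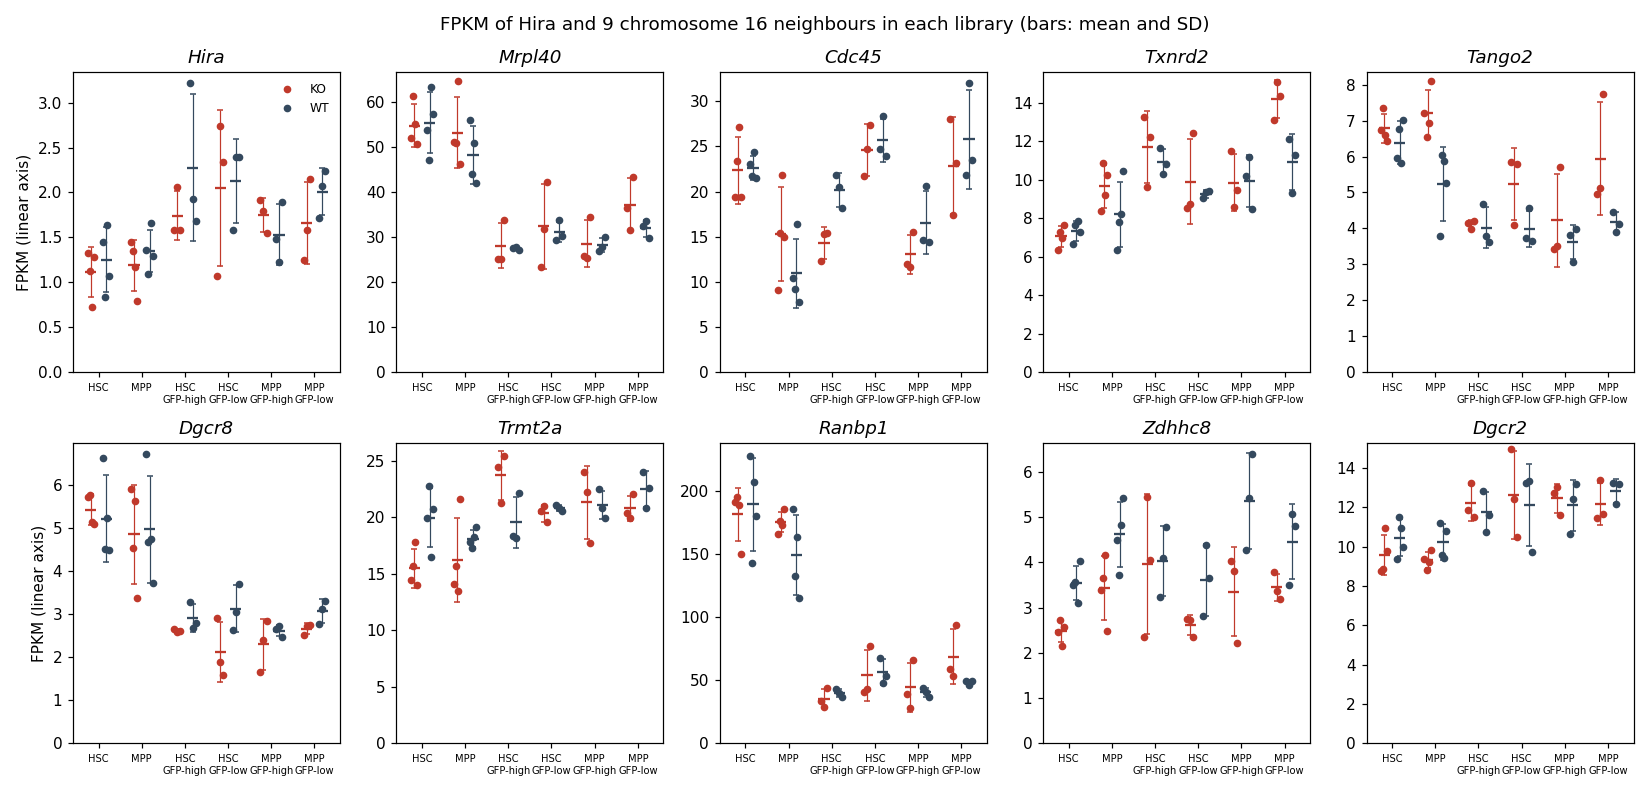
FPKM (linear axes) of Hira and its 9 neighbours in each library, by table, with labelled KO libraries in red left of labelled WT libraries in dark blue, and the mean and SD of each group. In most panels the colours overlap, and in that of Zdhhc8 in HSCs they do not: the highest labelled KO library had 2.73 FPKM and the lowest labelled WT library 3.11 FPKM. Levels are not comparable between tables, which were scaled separately.

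No neighbour passed the test in any of the 6 tables: 0 of 9 in each, against a background of 0.124% of tested genes in HSCs and 0.108% in MPPs. In the H2B-GFP cohort the background was 0.0276% for GFP-high HSCs, 0.0% for GFP-low HSCs, 0.0% for GFP-high MPPs and 0.32% for GFP-low MPPs. Passing means an adjusted p (Benjamini-Hochberg, all tested genes of the table) under 0.05 in limma on log2(FPKM + 1). In the tables with no call, 917 genes of GFP-low HSCs and 765 of GFP-high MPPs had an unadjusted p under 0.05, and voom on recovered reads made 0 calls in either. The adjusted p values of the 54 comparisons ran from 0.222 to 0.997. Their log2 differences, labelled KO minus labelled WT, ran from -0.56 (Zdhhc8, GFP-high MPPs) to 0.45 (Ranbp1, GFP-low MPPs), with 29 below 0 and 25 above. Of the 54 intervals of 95%, 53 had a lower bound above -1 and 53 an upper bound below 1. A difference of that size, on the scale of log2(FPKM + 1), was outside all but 1 interval on each side. For neighbours of a few FPKM the added 1 makes a halving or doubling smaller than 1 on this scale. A halving of Dgcr8 in GFP-low HSCs, for instance, would lie inside its interval, which had a lower bound of -0.89. The exceptions were Zdhhc8 in GFP-high MPPs, with a lower bound of -1.04, and Cdc45 in MPPs, with an upper bound of 1.01.

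Where few genes pass, the overlap of the groups gives another view. Labelled KO libraries lay wholly below or above labelled WT libraries for 1 of 9 neighbours in HSCs (background 6.2%) and 1 in MPPs (9.92%). In the H2B-GFP cohort it was 2 for GFP-high HSCs (16.1%), 1 for GFP-low HSCs (14.1%), 1 for GFP-high MPPs (13.3%) and 4 for GFP-low MPPs (19.1%). These are 10 of the 54 comparisons, 6 with labelled KO lower and 4 with labelled KO higher. Over all tested genes, in the same order of tables, labelled KO was wholly lower for 3.39%, 4.84%, 7.47%, 6.42%, 6.59% and 9.33%, and wholly higher for 2.81%, 5.08%, 8.61%, 7.67%, 6.74% and 9.73%. At an unadjusted p under 0.05, limma counted 8 of 54, 4 lower and 4 higher, against backgrounds of 10.1%, 16.6%, 10.4%, 8.57%, 7.09% and 12.3%.

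**Figure D2:**
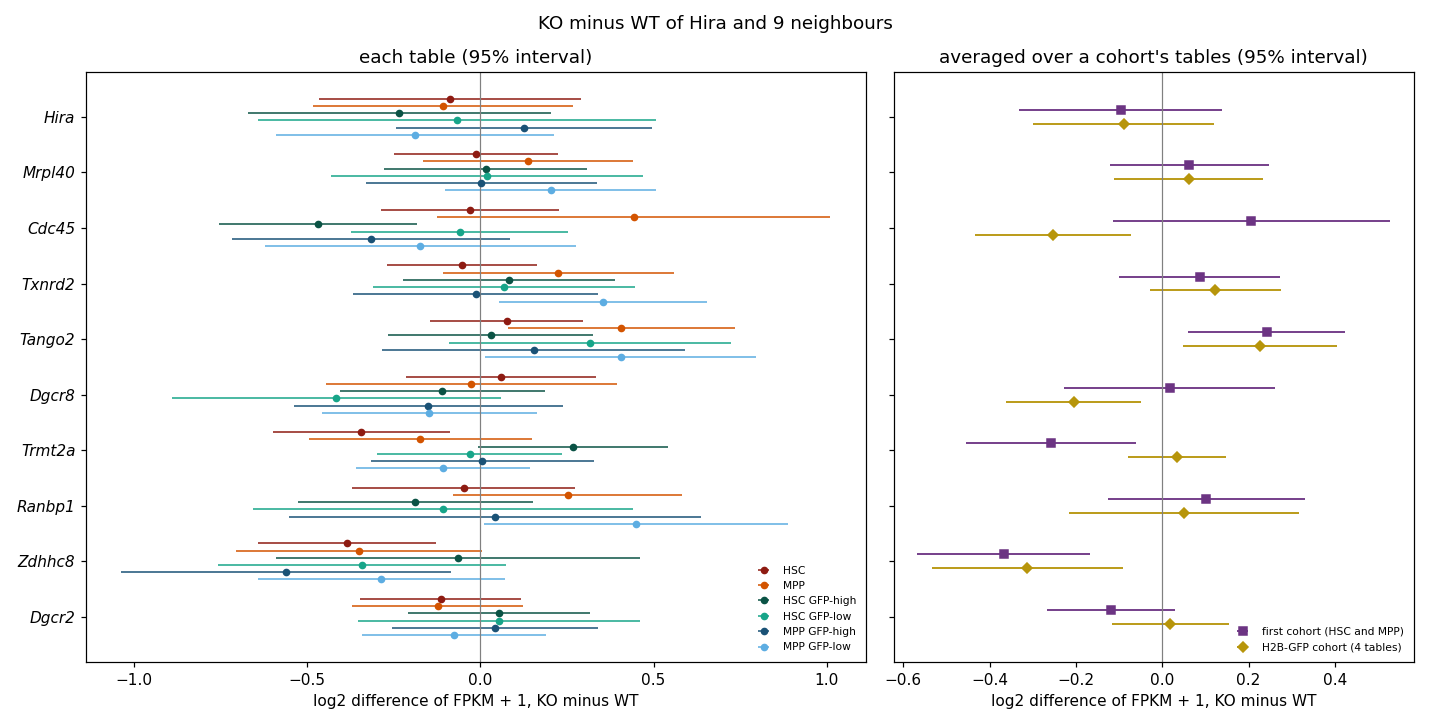
Log2 differences, labelled KO minus labelled WT, of log2(FPKM + 1) with 95% intervals, for Hira and its neighbours in order of distance, in each table (left) and averaged over the tables of a cohort (right). Intervals of 8 of the 54 single comparisons of neighbours leave out 0, before adjustment. In the averages Zdhhc8 lies below 0 in both cohorts, at -0.37 and -0.31, and Tango2 above 0 in both, at 0.24 and 0.23.

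Mrpl40, a protein of the large subunit of the mitochondrial ribosome, is the gene that shares its start region with Hira. It had among the smallest differences. In HSCs it had 52.0, 61.3, 55.2 and 50.6 FPKM in labelled KO libraries, against 54.0, 47.1, 63.3 and 57.4 FPKM in labelled WT libraries. In MPPs it had 51.1, 51.0, 64.7 and 46.3 FPKM in labelled KO libraries, against 56.0, 44.0, 51.1 and 42.0 FPKM in labelled WT libraries. The groups overlapped in both, as they did in all 6 tables. Averaged over HSCs and MPPs its log2 difference was 0.06 (95% interval -0.12 to 0.25, adjusted p = 0.726), and over the 4 GFP tables it was 0.06 (-0.11 to 0.23, adjusted p = 0.702). Labelled KO replicate 3 was the highest labelled KO library for Mrpl40 in every GFP table, and without it in all 4 the averaged difference was -0.09 (adjusted p = 0.339).

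Other genes of the mitochondrial large subunit (those named Mrpl) gave a yardstick for Mrpl40, and 0 of them passed in any table. In MPPs 43 of 48 tested had a positive difference, with a median of 0.20, where Mrpl40 had 0.14. In GFP-low MPPs 40 of 47 were positive, with a median of 0.13, where Mrpl40 had 0.20. The other tables were more even, with 20 of 48 positive in HSCs (median -0.05), 20 of 47 in GFP-high HSCs (-0.02) and 29 of 47 in each of GFP-low HSCs (0.04) and GFP-high MPPs (0.03), where Mrpl40 lay between -0.01 and 0.02 and had the opposite sign in GFP-high HSCs. The median over all tested genes was 0.00 in each table. Over the 40 libraries, taken as deviations from the mean of their own table and label, the 3 genes most like Mrpl40 were Mrpl18 (Pearson r = 0.87), Mrpl42 (r = 0.84) and H2afz (r = 0.83), among 9338 genes tested in all tables. Hira, across the shared start region, had r = 0.38 with Mrpl40, and 0.41 over the 36 libraries without labelled KO replicate 3 of the GFP tables. Libraries of a table share a scaling, and these correlations are descriptions.

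Cdc45, which forms the replicative helicase with the MCM and GINS proteins, had averaged differences of opposite sign in the cohorts and passed in neither. In GFP-high HSCs it had 12.3, 15.3 and 15.4 FPKM in labelled KO libraries, against 21.8, 20.5 and 18.1 FPKM in labelled WT libraries. The groups did not overlap there, with a log2 difference of -0.47 ± 0.13 (SE, unadjusted p = 0.00484, adjusted p = 0.286). In MPPs the difference was 0.44 ± 0.26 (adjusted p = 0.42), with 9.15, 15.4, 21.9 and 14.9 FPKM in labelled KO libraries, against 10.4, 9.21, 16.4 and 7.75 FPKM in labelled WT libraries, which overlap. Averaged over a cohort it was 0.21 in the first (95% interval -0.11 to 0.53, adjusted p = 0.464) and -0.25 in the GFP tables (-0.43 to -0.07, adjusted p = 0.0698). That of the GFP tables passed without GFP-high MPP labelled KO replicate 3 (adjusted p = 0.0434), without GFP-low MPP labelled KO replicate 1 (0.0343), or without the third labelled KO library of all 4 tables (0.0366). These fits took the libraries as independent. With all libraries and a shared term for same-numbered libraries of one label, which deviated together in the GFP tables (described with Zdhhc8), the adjusted p was 0.277.

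A list of 20 genes of origin licensing and the helicase, such as the Mcm and Gins families, had 0 passing in any table. In MPPs 20 of 20 had a positive difference and the list's median was 0.39. In HSCs it was -0.14, with 4 of 20 positive. Medians were -0.28 for HSCs and -0.33 for MPPs that kept the GFP label, with 1 and 2 of 20 positive. They were -0.24 for GFP-low HSCs and -0.11 for GFP-low MPPs, with 1 and 4 of 20 positive. Cdc45 had the sign of that median in all 6 tables. Summed levels of 15 mitosis genes, of which 0 passed in any table, were in MPPs 263 to 407 FPKM in labelled KO libraries, against 114 to 243 FPKM in labelled WT libraries. In GFP-high HSCs they were 149 to 250 FPKM in labelled KO libraries, against 218 to 314 FPKM in labelled WT libraries. In these tables Cdc45 had the sign of the shift, but not in all: in HSCs every labelled KO sum (441 to 545 FPKM) lay above every labelled WT sum (403 to 434 FPKM), with the Cdc45 difference at -0.03. In GFP-low MPPs the sums were 368 to 445 FPKM in labelled KO libraries, against 265 to 437 FPKM in labelled WT libraries, with Cdc45 at -0.17. Sums of labelled KO libraries spanned those of labelled WT libraries in GFP-low HSCs (243 to 574 FPKM, against 324 to 452 FPKM) and GFP-high MPPs (163 to 397 FPKM, against 226 to 304 FPKM). The part of cell cycle activity in the Cdc45 values was not tested. The genes most like Cdc45 were Cdca5 (r = 0.70), 4930579G24Rik (r = 0.68) and Spc24 (r = 0.67), of which Cdca5 acts in sister chromatid cohesion and Spc24 at the kinetochore.

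**Figure D3:**
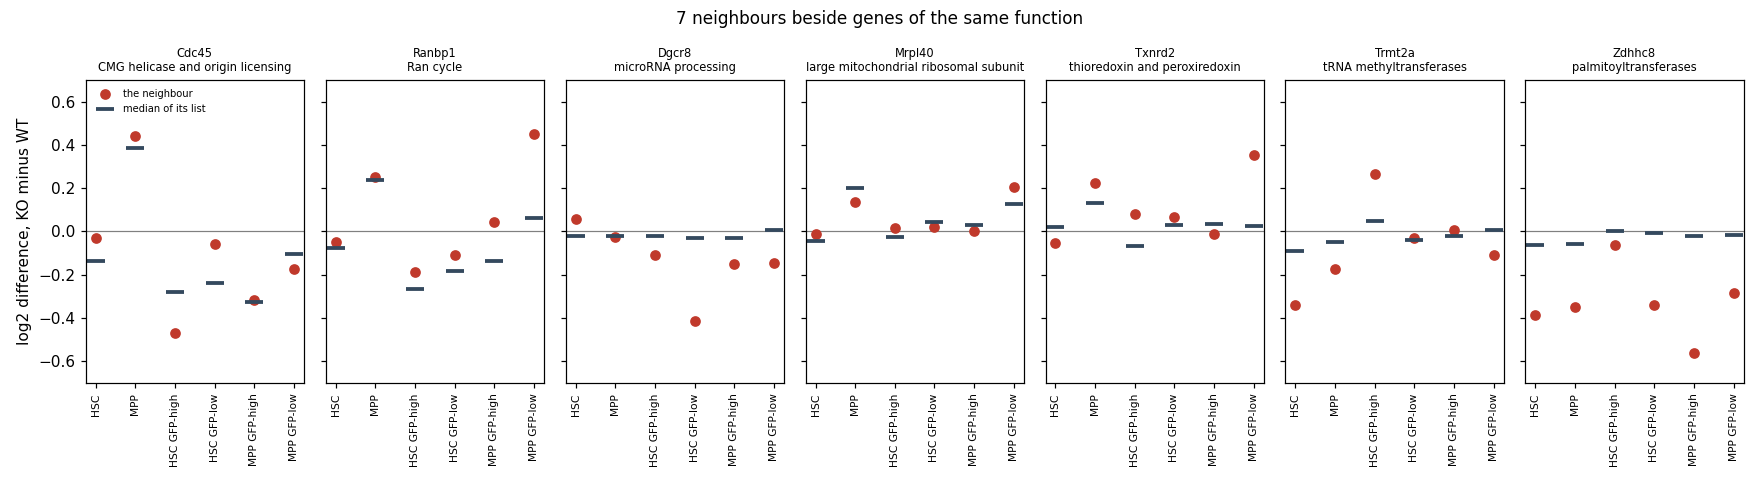
Log2 difference, labelled KO minus labelled WT, of 7 neighbours (red points) beside the median of genes with a related function (dark bars) in each of the 6 tables. Cdc45 and its list have the same sign in all 6 tables, reaching 0.44 and 0.39 in MPPs, while Zdhhc8 lies below the median of its list in all 6.

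Ranbp1, which binds the GTP form of Ran and aids its hydrolysis in nuclear transport, passed in no table, and labelled KO replicate 3 of the H2B-GFP cohort stood out in it. In GFP-low MPPs it had 58.8, 53.4 and 93.9 FPKM in labelled KO libraries, against 49.4, 46.7 and 49.5 FPKM in labelled WT libraries. The groups did not overlap, with a log2 difference of 0.45 ± 0.19 (SE, adjusted p = 0.393), and the third labelled KO library was by far the highest. That replicate was the highest labelled KO library in the other GFP tables as well, with 43.6 FPKM for GFP-high HSCs, 77.5 FPKM for GFP-low HSCs and 66.0 FPKM for GFP-high MPPs, above every other library of those tables. Without labelled KO replicate 3 the difference in GFP-low MPPs was 0.20 (adjusted p = 0.482). The average over the 4 GFP tables was 0.05 (adjusted p = 0.856) with these libraries and -0.20 (adjusted p = 0.073) without them. The mitosis sums of that replicate were also the highest among labelled KO libraries in each GFP table, at 250, 574, 397 and 445 FPKM, and their part in the Ranbp1 values was not tested. In the first cohort the averaged difference of Ranbp1 was 0.10 (95% interval -0.13 to 0.33, adjusted p = 0.628).

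Of 11 other genes of the Ran cycle, 1 passed in 1 table, that of MPPs, where 0.108% of all tested genes passed. The number of genes passing there ran from 0 to 212 when 1 library was left out. The gene that passed was Kpna2, the importin that carries many nuclear proteins. In MPPs it had 51.6 ± 8.22 FPKM in labelled KO libraries, against 23.8 ± 5.59 FPKM in labelled WT libraries (SD, n = 4 each, log2 difference 1.09 ± 0.17, SE, limma adjusted p = 0.0475). The list's median in MPPs was 0.24, beside 0.25 for Ranbp1, and in GFP-high HSCs it was -0.26, beside -0.19. It was -0.08 in HSCs, beside -0.05, and -0.18 in GFP-low HSCs, beside -0.11. In GFP-low MPPs, where Ranbp1 differed most (0.45), the list's median was 0.06, and in GFP-high MPPs the signs were opposite (-0.14, with 2 of 11 positive, beside 0.04). Ptges3 (r = 0.91), Hspd1 (r = 0.90) and Set (r = 0.89) were most like Ranbp1 across the 40 libraries. Ptges3 is a co-chaperone of Hsp90, Hspd1 the mitochondrial chaperonin and Set a histone chaperone and phosphatase inhibitor. Trmt2a, which shares the start region, had r = -0.12 with Ranbp1.

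Dgcr8, the RNA-binding partner of Drosha in microRNA processing, was lower in labelled KO libraries in 5 of 6 tables without passing in any. In GFP-low HSCs it had 2.91, 1.89 and 1.59 FPKM in labelled KO libraries, against 2.63, 3.06 and 3.71 FPKM in labelled WT libraries. These groups overlapped, with a log2 difference of -0.41 ± 0.21 (SE, adjusted p = 0.637). In GFP-low MPPs they did not, at 2.53, 2.73 and 2.76 FPKM in labelled KO libraries, against 2.77, 3.12 and 3.32 FPKM in labelled WT libraries (-0.15 ± 0.14, adjusted p = 0.688). Nor did they in GFP-high HSCs, at 2.67, 2.59 and 2.62 FPKM in labelled KO libraries, against 3.29, 2.69 and 2.79 FPKM in labelled WT libraries (-0.11 ± 0.13, adjusted p = 0.827). In both tables the nearest libraries of the 2 labels lay close together. The average over the GFP tables was -0.21 (95% interval -0.36 to -0.05, adjusted p = 0.092) and that over the first cohort 0.02 (-0.23 to 0.26, adjusted p = 0.950). The GFP average passed without GFP-low HSC labelled KO replicate 1, at -0.25 (adjusted p = 0.0236), in a fit with independent libraries, while the shared term gave an adjusted p of 0.390 with all libraries. Of 11 or 12 other genes of microRNA processing tested per table, Drosha among them, 0 passed, with list medians between -0.03 and 0.01. Hnrnpa1 (r = 0.73), Rtn4 (r = 0.72) and Ltn1 (r = 0.72) were most like Dgcr8.

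Trmt2a, a methyltransferase for uridine in tRNA, had its largest differences in HSCs of the first cohort, where it was lower in labelled KO, and in GFP-high HSCs, where it was higher. In HSCs of the first cohort it had 14.4, 15.7, 17.8 and 14.1 FPKM in labelled KO libraries, against 20.0, 22.7, 16.5 and 20.7 FPKM in labelled WT libraries. One library of each label crossed the other group, and the log2 difference was -0.34 ± 0.12 (SE, adjusted p = 0.342, exact permutation p = 0.0571). In GFP-high HSCs it was 0.27 ± 0.12 (adjusted p = 0.490), with 24.4, 21.2 and 25.4 FPKM in labelled KO libraries, against 18.4, 18.2 and 22.1 FPKM in labelled WT libraries. The first-cohort average was -0.26 (95% interval -0.46 to -0.06, adjusted p = 0.128), and it passed without MPP labelled KO replicate 4, at -0.33 (adjusted p = 0.0194), while the shared term gave 0.155 with all libraries. Over the GFP tables the average was 0.03 (-0.08 to 0.15, adjusted p = 0.757). Of the 17 other tRNA methyltransferase genes listed (18 entries in the first cohort, since 1 symbol occurs 2 times), 0 passed in any table. Its overlap partner Dgcr8 had r = -0.50 with it over 40 libraries, and the genes most like it were Lrrc45 (r = 0.77), Dnajc14 (r = 0.76) and Dalrd3 (r = 0.74).

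Txnrd2, the thioredoxin reductase of mitochondria, was higher in labelled KO libraries without overlap in GFP-low MPPs only. There it had 13.1, 15.1 and 14.4 FPKM in labelled KO libraries, against 12.1, 9.32 and 11.3 FPKM in labelled WT libraries (log2 difference 0.35 ± 0.13, SE, adjusted p = 0.329). Its difference was between -0.05 and 0.23 in the other 5 tables, and the averages were 0.09 in the first cohort (adjusted p = 0.614) and 0.12 in the GFP tables (adjusted p = 0.320), where it was 0.08 (adjusted p = 0.553) without labelled KO replicate 3 of all 4. The 15 other genes of the thioredoxin, glutaredoxin and peroxiredoxin systems had 0 passing and a median of 0.03 in GFP-low MPPs. Isca1 (r = 0.67), Usp33 (r = 0.63) and Srrt (r = 0.63) were most like Txnrd2.

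Zdhhc8, a membrane enzyme that attaches palmitate to proteins, was the 1 neighbour with a difference that passed, and only in an average. In HSCs it had 2.46, 2.73, 2.16 and 2.57 FPKM in labelled KO libraries, against 3.49, 3.56, 3.11 and 4.03 FPKM in labelled WT libraries. All labelled KO libraries lay below all labelled WT libraries, and their mean was 0.699 times that of labelled WT libraries (log2 difference -0.38 ± 0.12, SE, adjusted p = 0.276). The exact permutation p was 0.0286, the smallest that 4 against 4 can give. In MPPs it had 3.39, 3.66, 4.16 and 2.48 FPKM in labelled KO libraries, against 4.49, 3.71, 4.83 and 5.42 FPKM in labelled WT libraries. These ranges overlapped through labelled KO replicate 3 (log2 difference -0.35 ± 0.16, adjusted p = 0.309).

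Averaged over both tables of the first cohort, Zdhhc8 fell in labelled KO cells, by a log2 difference of -0.37 (95% interval -0.57 to -0.17, limma adjusted p = 0.039). It was the 1 of 9 neighbours to pass there, against a background of 4.03% of 13166 tested genes, 1.96% with labelled KO lower. The call held when HSC labelled WT replicate 3, MPP labelled KO replicate 3, MPP labelled KO replicate 4 or MPP labelled WT replicate 2 was left out, and it was lost when any 1 of the other 12 libraries was left out (adjusted p 0.0531 to 0.0834), with differences between -0.41 and -0.31 over all 16.

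In the H2B-GFP cohort Zdhhc8 was lower in the labelled KO mean of every table and passed in none. In GFP-high MPPs it had 4.02, 3.82 and 2.23 FPKM in labelled KO libraries, against 4.28, 5.41 and 6.39 FPKM in labelled WT libraries. The groups did not overlap (log2 difference -0.56 ± 0.21, SE, adjusted p = 0.619). Nor did they in GFP-low HSCs, with 2.75, 2.73 and 2.36 FPKM in labelled KO libraries, against 2.80, 4.39 and 3.65 FPKM in labelled WT libraries (-0.34 ± 0.18, adjusted p = 0.664). They overlapped in GFP-low MPPs (-0.29 ± 0.16, adjusted p = 0.487) and in GFP-high HSCs (-0.06 ± 0.23, adjusted p = 0.957). The GFP-high HSC difference changed sign when the libraries were rescaled to one FPKM total (0.00) and when labelled KO replicate 1 (0.19) or labelled WT replicate 3 (0.04) was left out.

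Over the 4 GFP tables the averaged difference of Zdhhc8 was -0.31 (95% interval -0.53 to -0.09, adjusted p = 0.0679), and 0 of 9 neighbours passed, against a background of 9.04% of 10166 tested genes (4.54% with labelled KO lower). At an unadjusted p under 0.05 the averages counted 23.8% of genes there and 20.7% in the first cohort. It passed without GFP-high HSC labelled KO replicate 2, at -0.37 (adjusted p = 0.0289), and was -0.25 (adjusted p = 0.175) without labelled KO replicate 3 of all 4 tables. Same-numbered libraries of one label deviated together across the GFP tables, with a correlation over 0.1 in 34 of 36 pairs, against 2 of 72 pairs with different numbers. The labels do not say whether such libraries came from one mouse. With a shared term for them the adjusted p was 0.275 in the GFP tables, where 2.53% of genes then passed, and 0.0505 in the first cohort, where 3.16% then passed. With that term 0 of 9 neighbours passed in either cohort, and the adjusted p of Tango2 in the GFP tables was 0.339. The intervals of the averages are from the fit without it. A negative difference in all 6 tables was found for 8.01% of 9338 genes tested in every table.

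Of the other palmitoyltransferase genes (those named Zdhhc), 16 or 17 were tested per table and 0 passed. Their medians lay between -0.06 and 0.00, and Zdhhc8 was below the median in all 6 tables. Zdhhc1 had the lowest value of the list in MPPs, at -0.63 (adjusted p = 0.14), and in HSCs, at -0.33 (adjusted p = 0.268). Across the 40 libraries the genes most like Zdhhc8 were Btbd2 (r = 0.76), Sh3bp2 (r = 0.71) and Tmem94 (r = 0.71). Its own neighbour Ranbp1 had r = -0.47 with it, and -0.42 over 36 libraries without labelled KO replicate 3 of the GFP tables.

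Tango2, named in flies for transport and Golgi organization and tied in worms and yeast to the movement of haem, was the 1 neighbour higher in the labelled KO mean of all 6 tables. A positive difference in all 6 was found for 6.47% of the 9338 genes. In MPPs it had 7.2, 6.55, 6.94 and 8.10 FPKM in labelled KO libraries, against 3.78, 6.05, 5.87 and 5.25 FPKM in labelled WT libraries. Those groups did not overlap (log2 difference 0.41 ± 0.15, SE, adjusted p = 0.222, exact permutation p = 0.0286). In GFP-low MPPs it had 4.95, 5.13 and 7.75 FPKM in labelled KO libraries, against 4.46, 3.91 and 4.12 FPKM in labelled WT libraries, again with no overlap (0.41 ± 0.17, adjusted p = 0.390, and 0.23 without labelled KO replicate 3).

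The averages of Tango2 were 0.24 in the first cohort (95% interval 0.06 to 0.42, adjusted p = 0.121) and 0.23 in the GFP tables (0.05 to 0.40, adjusted p = 0.102). Without labelled KO replicate 3 of all GFP tables the second was 0.11 (adjusted p = 0.342). The sign changed in GFP-high MPPs without labelled KO replicate 3 (-0.04), and in GFP-high HSCs without labelled WT replicate 2 (-7.6e-05) or replicate 3 (-0.03). Among the genes most like Tango2 were Gata1 (r = 0.74), the transcription factor of red cell and megakaryocyte development, and Plscr1 (r = 0.72).

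The highest sum of red cell markers belonged to a labelled KO library in 5 of 6 tables, with larger and smaller Tango2 differences among them. Every labelled KO sum lay above every labelled WT sum in GFP-low HSCs and GFP-low MPPs only. In MPPs, HSCs and GFP-high MPPs a single labelled KO library gave the higher maximum. The next labelled KO sums there were 3281, 1318 and 409 FPKM, below the highest labelled WT sum. Summed over 8 erythroid markers, MPPs had 957 to 6624 FPKM in labelled KO libraries, against 275 to 3628 FPKM in labelled WT libraries. Of these 8 genes 8 were positive in MPPs, with a median of 1.08, and 0 passed. In GFP-low MPPs, where 7 were listed, the sum was 983 to 1342 FPKM in labelled KO libraries, against 447 to 875 FPKM in labelled WT libraries. Of the 7, 1 passed, against 0.32% of all tested genes there. That was Epor, the erythropoietin receptor, which rose to 20.1 ± 2.66 FPKM in labelled KO libraries, against 7.43 ± 0.858 FPKM in labelled WT libraries (SD, n = 3 each; limma adjusted p = 0.0228). In GFP-low HSCs the sum was 439 to 1603 FPKM in labelled KO libraries, against 176 to 284 FPKM in labelled WT libraries, with the Tango2 difference at 0.32. In HSCs it was 378 to 4852 FPKM in labelled KO libraries, against 400 to 2087 FPKM in labelled WT libraries, with the Tango2 difference at 0.08. In GFP-high MPPs it was 384 to 1190 FPKM in labelled KO libraries, against 250 to 484 FPKM in labelled WT libraries, with the Tango2 difference at 0.15. In GFP-high HSCs it was 296 to 516 FPKM in labelled KO libraries, against 350 to 712 FPKM in labelled WT libraries, with the Tango2 difference at 0.03. The part of red cell RNA in the Tango2 values was not tested, and in sorted bulk samples more cells of a type and more RNA per cell cannot be told apart.

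Dgcr2, a membrane protein with the build of an adhesion receptor and the farthest of the 9 from Hira, had the narrowest differences. They ran from -0.12 to 0.05 over the 6 tables, and the groups overlapped in each. In HSCs it averaged 9.58 ± 1.01 FPKM in labelled KO libraries and 10.4 ± 0.952 FPKM in labelled WT libraries (SD, n = 4 each). The averaged difference was -0.12 in the first cohort (95% interval -0.27 to 0.03, adjusted p = 0.355) and 0.02 in the GFP tables (-0.12 to 0.15, adjusted p = 0.896), where it was 0.08 (adjusted p = 0.527) without labelled KO replicate 3 of all 4. Zdhhc1 (r = 0.66), Gpt (r = 0.66) and Ndst1 (r = 0.64) were most like Dgcr2, and Tarsl2 (r = 0.69), Ccny (r = 0.68) and 2610524H06Rik (r = 0.66) most like Hira.

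Differences between cell types and between GFP classes were tested as well, as contrasts of the labelled KO effect. Of 45 such differences (9 neighbours, 5 contrasts) 0 passed and 0 had an unadjusted p under 0.05, and the smallest unadjusted p was 0.0675, for Trmt2a between GFP-low and GFP-high HSCs (adjusted p = 0.999). The smallest adjusted p was 0.664, for Tango2 between MPPs and HSCs of the first cohort. Over all genes 0.0076% passed for MPPs against HSCs in the first cohort and 0.0% for each of the 4 contrasts of the GFP tables, while an unadjusted p under 0.05 was counted for 7.84% of genes in the first cohort and, in the GFP tables, for 2.2% and 5.83% (MPPs against HSCs, GFP-high and GFP-low) and 3.64% and 2.71% (GFP-low against GFP-high, HSCs and MPPs). The opposite signs of Cdc45 in the cohorts were not tested against each other, since the cohorts were fitted apart.

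The 9 were set in their wider surroundings last. Of all genes within 1.5 Mb of Hira, 33 to 42 were tested per table, with the 9 among them and Hira left out, and 0 passed in any. Their median log2 difference lay between -0.08 and 0.04, while that of all tested genes was 0.00 in each table and that of chromosome 16 lay between -0.03 and -0.01. Differences below 0 were counted for 30 of 42 genes in HSCs, 25 of 40 in MPPs, 13 of 36 in GFP-high HSCs, 18 of 35 in GFP-low HSCs, 21 of 35 in GFP-high MPPs and 21 of 33 in GFP-low MPPs. In HSCs 9 of the 42 had an unadjusted p under 0.05, 7 of them lower in labelled KO, against 10.1% of all tested genes. There 5 lay wholly below and 1 wholly above the labelled WT libraries, against 3.39% and 2.81% of all tested genes. In the other tables, in the same order, 4, 5, 2, 3 and 5 had an unadjusted p under 0.05, against 16.6%, 10.4%, 8.57%, 7.09% and 12.3%. Wholly below lay 2, 2, 1, 4 and 3, against 4.84%, 7.47%, 6.42%, 6.59% and 9.33%. Wholly above lay 1, 5, 4, 3 and 3, against 5.08%, 8.61%, 7.67%, 6.74% and 9.73%. Within 0.2 Mb, 4 or 5 genes were tested, with medians between -0.03 and 0.08. The groups did not overlap for Cdc45 (lower in labelled KO) and Ufd1 (higher) in GFP-high HSCs, against 16.1% of all tested genes. Nor did they for Cldn5 (higher) in GFP-high MPPs, against 13.3%. Every labelled WT library of Cldn5 was under 1 FPKM there. It could enter the test only with all 3 labelled KO libraries at 1 FPKM or more. Its lack of overlap was therefore fixed by the filter. Cldn5, a tight junction protein of endothelium, was singled out after its values were seen. It had 12.8 ± 17.5 FPKM in labelled KO libraries and 0.366 ± 0.230 FPKM in labelled WT libraries there (SD, n = 3 each; log2 difference 2.45 ± 0.80, SE, limma adjusted p = 0.548), the largest difference of the window, with an SD above its mean in labelled KO libraries. The 3 smallest p values within 1.5 Mb belonged to Prodh in GFP-high HSCs, Cdc45 in GFP-high HSCs and Zdhhc8 in HSCs. Prodh, a mitochondrial enzyme of proline breakdown, had 17.3 ± 0.489 FPKM in labelled KO libraries and 11.1 ± 1.61 FPKM in labelled WT libraries (SD, n = 3 each; log2 difference 0.60 ± 0.13, SE, adjusted p = 0.20). Its difference was 0.49 in GFP-low HSCs, and it was negative in the other 4 tables, down to -0.55 in MPPs. Of 31 genes of the window tested in all 6 tables, 4 were negative in all (B3gnt5, Dgcr6, Pi4ka and Zdhhc8), and 1, Tango2, was positive in all. Over the 9338 genes tested in all 6, the shares were 8.01% negative and 6.47% positive.

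**Figure D4:**
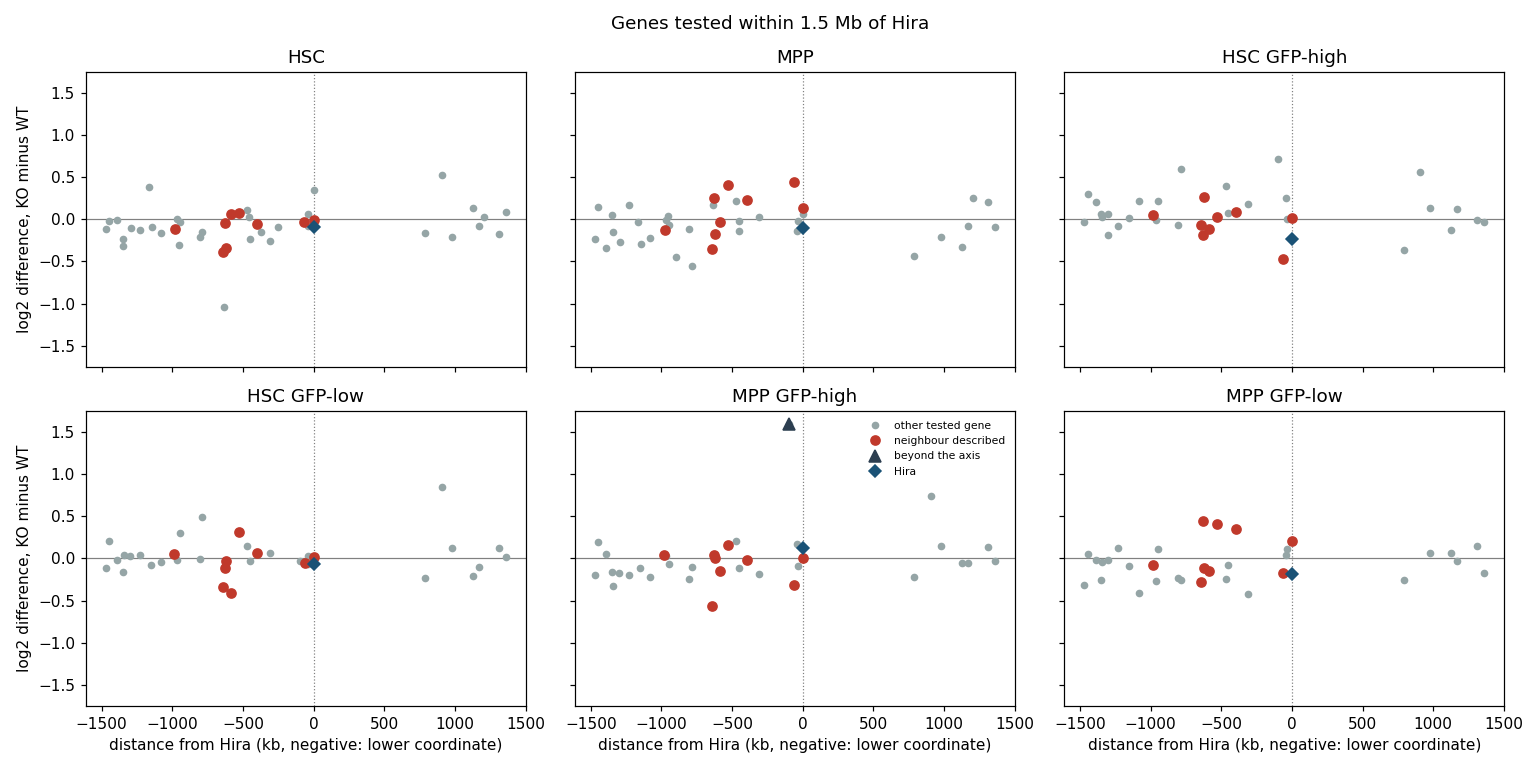
Log2 difference, labelled KO minus labelled WT, of every gene tested within 1.5 Mb of Hira against its distance from Hira in kb (negative values are on the side of the 9 neighbours), in each table. Red points are the 9 neighbours, grey points the other genes, the diamond is Hira, and a triangle marks 1 gene beyond the axis, Cldn5 in GFP-high MPPs at 2.45. Values lie on both sides of 0 in every table. The share below it was largest in HSCs (30 of 42) and smallest in GFP-high HSCs (13 of 36), and 0 passed the test.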

How the data were processed

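The authors deposited FPKM values per gene and library in 6 tables. Per the submitters' processing notes STAR, DESeq2, HOMER and mm10 were used, with no version or role. Within each table every library had the same median ratio to the genes' geometric means, so each table was scaled by itself. Each of the 40 value columns matched a sample, leaving 0 unmatched. Whole reads were recovered from the FPKM steps (within 0.01) for depth and 1 alternative. Where all reads of a gene in a table share a factor, they come out low by it: steps differed between tables of a cohort for 8.23% (first) and 11.6% (H2B-GFP) of genes, Hira among them in GFP-low MPPs but 0 of the 9 neighbours.

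Labelled KO and labelled WT libraries were compared within a table with limma 3.58.1 (R 4.3.3) on log2(FPKM + 1), with an intensity trend and empirical Bayes moderation, 2-sided, so differences of low genes are understated. Genes needed 1 FPKM in at least 4 libraries (first cohort) or 3 (H2B-GFP cohort), and passed at an adjusted p under 0.05. Averages and differences of effects came from joint fits per cohort. Exact permutation tests cannot go below 0.0286 for 4 against 4 and 0.1 for 3 against 3. The fit was tested on simulated data. The design calls the samples biological replicates, and labelled KO and WT libraries of one number did not deviate together.

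Positions are from GENCODE M21 or RefSeq on GRCm38. The members, the gene lists and the rule for named genes (members, Hira, the 3 smallest p values near Hira, the 3 most similar genes, and list genes that passed) were chosen with earlier results of these data known. Some items that the rule names are not reported here.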

Additional observations from a re-analysis of the deposited data

Results flagged for a closer look

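One library stood apart among the 40 groups of 4 libraries examined for Hira and the 9 neighbours (10 genes, 4 groups each). Ranbp1 had 150.3 FPKM in labelled KO HSC replicate 4, while the other 3 labelled KO HSC libraries had 189 to 195 FPKM. The gap made up 0.859 of the group's range, past the 0.829 that marks a lone value among 4. About 1 in 20 such groups is marked by chance, and here 1 of 40 was.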

How the results depend on the processing

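Neither Hira nor any neighbour passed in a single table under any setting tried (0 of 940 recomputed values). Of 2790 recomputed values of Hira and the neighbours, averages and differences of effects included, 2771 kept their direction, where called, and their side of the threshold, 13 lost a call (all Zdhhc8), 6 gained one and 0 called values changed sign. Another 156 uncalled values changed sign, to a size of at most 0.28. The cause was not tested.

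Counts over all genes moved more. In HSCs, 17 genes passed, against 2 with no filter on low values, 6 with libraries rescaled to one FPKM total, 27 with voom on recovered reads, 33 with library quality weights and 8 in the joint fit. In MPPs, 15 passed, against 7 with a pseudocount of 0.1, 0 with no filter, 114 with voom, 247 with weights and 560 in the joint fit. In GFP-high HSCs, 3 passed, against 5 with weights and 5 in the joint fit, and in GFP-low HSCs 0 passed, against 3 and 51. In GFP-high MPPs 0 passed, against 5 in the joint fit, and in GFP-low MPPs 34, against 2 with no filter, 12 with no intensity trend and 69 in the joint fit. Rescaling moved the first-cohort average from 531 to 304 genes and its MPP minus HSC difference from 1 to 0.

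Labelled KO and labelled WT libraries of the same number did not deviate together (4 of 20 pairs over 0.1). With that replicate block, 10 genes passed in HSCs, 137 in MPPs and 52 in GFP-low MPPs. With the block that ties same-numbered libraries of one label across tables, 257 genes passed in the GFP average and 4 in the GFP-low MPP minus HSC difference, against 919 and 0 without it, and 0 of 9 neighbours passed in the first-cohort average, against 1.

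Leaving out 1 library at a time gave 9 to 17 genes in HSCs, 0 to 212 in MPPs, 0 to 1 in GFP-high HSCs, 0 to 7 in GFP-low HSCs, 0 to 2 in GFP-high MPPs and 0 to 39 in GFP-low MPPs. It gave 299 to 976 in the first-cohort average, 0 to 18 in its MPP minus HSC difference and 731 to 1041 in the GFP average. Of the 9 neighbours, 0 to 2 passed in the first-cohort average and 0 to 1 in the GFP average, where leaving out labelled KO replicate 3 of all 4 tables gave 1, Cdc45. Depth was lower in the H2B-GFP cohort, where a neighbour rested on as few as 113 reads in a library. The part of depth in these results was not tested.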
